A study of Mus musculus with 18 samples.

Results

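The 9 genes described here mark the lipid-associated macrophage: *Trem2*, *Gpnmb*, *Spp1*, *Lgals3*, *Cd9*, *Cd63*, *Cd68*, *Atp6v0d2* and *Itgax*. They were taken by symbol from the gene tables of 18 mouse livers, in which all 9 of the 9 listed genes were found among 23352 symbols and none had a failed estimate. Poly(A) RNA of whole liver was sequenced from 9 wild-type (WT) and 9 *Gpr180*KO male mice of 20 weeks of age, 1 library per mouse, and every mouse was fed a high-fat diet (HFD). *Gpr180*KO mice are homozygous for a whole-body allele made by CRISPR/Cas9, which lacks exon 6 of *Gpr180*, and both genotypes descended from matings of heterozygous mice on the C57BL/6J background. The values are FPKM, fragment numbers scaled to transcript length and to library size. Mice are called by their labels (W317 is WT, KO51 is *Gpr180*KO). Sample titles come in 2 styles, called here series 1 (4 mice per genotype) and series 2 (5 per genotype); no source says whether the series were processed on different dates.

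Lipid-associated macrophages accumulate in fat-laden adipose tissue, fatty liver and atherosclerotic plaque. They are recruited largely from blood monocytes, unlike the resident Kupffer cells of the liver, take up lipid and dead cells, and carry an enlarged lysosomal compartment. Their lipid receptor TREM2 signals through the adaptor DAP12 and the kinase SYK, and the programme includes secreted proteins, tetraspanins and lysosomal proteins. In whole liver, fewer cells of a type and less RNA per cell cannot be told apart.

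In WT livers the *Gpr180* level averaged 6.79 FPKM ± 1.99 (SD, n = 9), and in *Gpr180*KO livers it averaged 1.602 FPKM ± 0.371 (SD, n = 9). All 9 *Gpr180*KO livers lay below the lowest WT liver, so the labels held for every mouse. Estimated depth was highest in W317 and reached down to 44.4% of it, and the median gene differed by -0.13 on the log2 scale (*Gpr180*KO minus WT), or by 0.02 when libraries were rescaled by the median of ratios. The liver of W157 stood apart: it was the lowest of the 9 WT livers for 7 of the 9 genes and in the bottom 3 for all 9. W318 was among the top 3 WT livers for 9 of 9 genes and the highest for 5. Among *Gpr180*KO livers, KO319 was in the top 3 for 8 genes and KO54 was the lowest for 5.

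Each of the 9 genes averaged less in *Gpr180*KO than in WT livers. Mean log2 levels were also lower for 76.9% of all genes tested, but for 44.9% with median-of-ratios scaling. Of the 8 whose mean FPKM reached 1, which enter the limma fit of 10835 genes, 6 were called lower at an adjusted p under 0.05 (*Spp1*, *Atp6v0d2*, *Cd63*, *Trem2*, *Cd68* and *Gpnmb*) and 0 higher. Among all genes tested, 4.28% were called lower and 0.452% higher. The median log2 difference (*Gpr180*KO minus WT, on the log2(FPKM + 0.1) scale) of the 8 genes was -1.28, against -0.13 for all genes tested. *Cd9* and *Lgals3* missed the threshold, with adjusted p of 0.0501 and 0.0534. When the minimum mean was lowered to 0.1 FPKM (14016 genes), which adds *Itgax*, 9 of 9 were called lower, beside 5.54% of all genes. No gene separated the genotypes completely: 0 of 8 had every *Gpr180*KO liver below every WT liver, a pattern held by 0.175% of all genes tested.

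**Figure D1:**
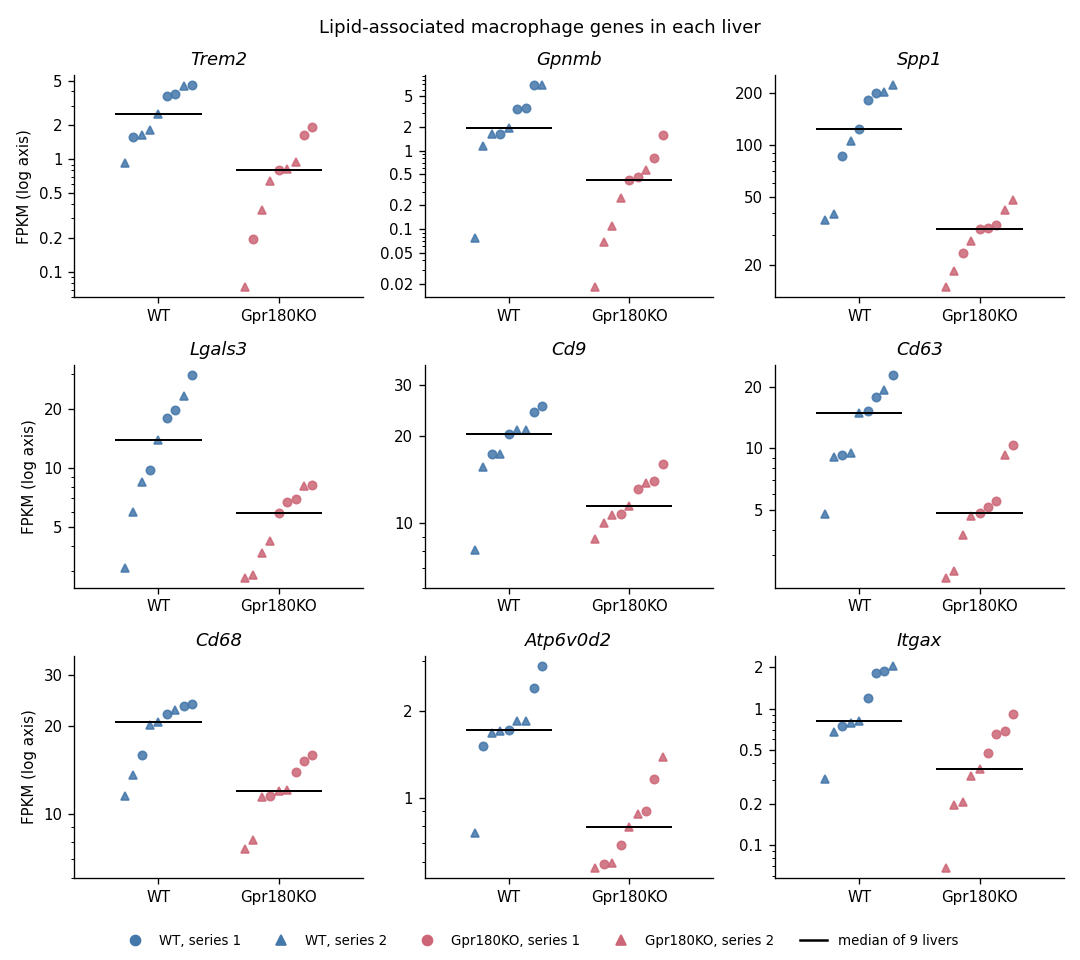
FPKM of each of the 9 genes in every liver (log axis), ordered from low to high within each genotype, with circles for series 1, triangles for series 2 and a bar at the median of 9 livers. Each *Gpr180*KO median lies below the WT median of the same gene, and W157 is the lowest WT point of *Gpnmb* at 0.0760 FPKM.

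The count of 6 depended on which livers and which scaling entered the fit. With median-of-ratios scaling 5 of 8 were called lower (1.36% of all genes), and *Gpnmb* lost the call at an adjusted p of 0.0561. With series as a block in the fit all 8 were called (9.52% of all genes). Without W317 only *Spp1* and *Atp6v0d2* were called (1.35% of all genes), without W133 the same 2 genes (1.07%), and without W318 *Spp1*, *Atp6v0d2* and *Cd63* (1.35%). Without W157 all 8 were called (7.79% of all genes). *Spp1* and *Atp6v0d2* held the call in each of the 18 fits that left out 1 liver.

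Within series 1 alone, limma called 6 of 8 genes lower (4.5% of all genes): *Spp1*, *Atp6v0d2*, *Gpnmb*, *Cd63*, *Cd9* and *Lgals3*. Within series 2 alone, limma called 0 of 8, as it called 0 of all 10835 genes (0.0% lower). There 7 of the 8 had an unadjusted p under 0.05, as did 2019 of all genes. The median log2 difference of the 8 genes was -1.34 in series 1 and -1.24 in series 2, where the median gene stood at -0.07 and -0.17. The genotype difference itself was compared between the series with limma's interaction term, and none of the 9 genes passed (lowest adjusted p 0.824). The same term called 0 of all genes tested (lowest adjusted p 0.581). Its lack of calls therefore cannot show that the series agree for these genes.

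**Figure D2:**
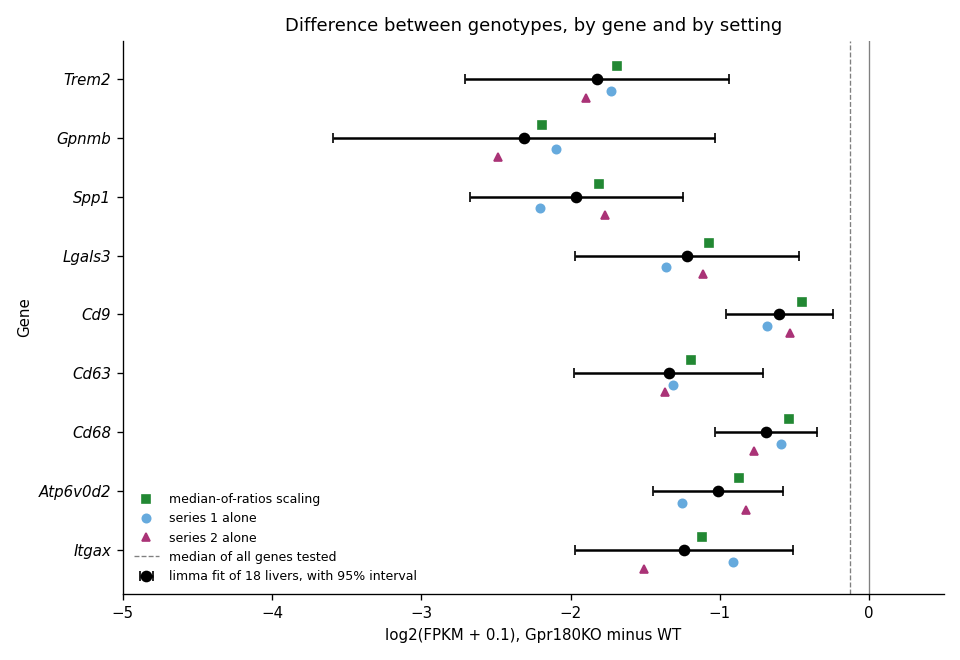
Log2 difference between genotypes for each gene from the limma fit of 18 livers with its 95% interval (black), and the same difference after median-of-ratios scaling, in series 1 and in series 2. Every point lies below 0, from -2.48 for *Gpnmb* in series 2 to -0.45 for *Cd9* after median-of-ratios scaling.

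Promoter sequence was read for these genes because they differed in the same direction. RefSeq (GRCm38.p6) gave 9 promoters for 8 of the 9 genes, *Spp1* having 2 entries, and each was searched from 250 bases before to 50 after the start on both strands for 4 motifs. TGANTCA, the site of AP-1 factors, was found in the promoters of *Gpnmb*, *Itgax*, *Cd68* and *Trem2*, 4 of 9 promoters, against 7.81% of all 32851 promoters. GAGGAA, the core of sites for the myeloid factor PU.1, was found for *Spp1*, *Cd63*, *Cd68* and *Trem2*, again 4 of 9, against 28.3% of all promoters. CACGTG, the E-box of lysosomal genes, and TCATGTG, a site of the MITF family, were in 0 of 9, against 7.15% and 3.77% of all promoters. The 4 motifs share no overlap here, and a match is a description of letters only. The 250 bases before the start, written 5′ to 3′ on the strand of the gene, follow for *Trem2* and *Cd68*, which hold both motifs, for *Itgax* with an AP-1 match alone and for *Spp1* with a PU.1 core alone, with the motif on either strand in capitals.
*Trem2* (chr17:48346151-48346400, plus strand): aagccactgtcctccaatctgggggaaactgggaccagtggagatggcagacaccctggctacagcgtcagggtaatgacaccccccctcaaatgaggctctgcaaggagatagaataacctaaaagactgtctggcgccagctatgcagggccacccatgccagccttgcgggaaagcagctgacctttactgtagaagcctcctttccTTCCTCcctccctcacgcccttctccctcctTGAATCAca
*Cd68* (chr11:69666171-69666420, minus strand): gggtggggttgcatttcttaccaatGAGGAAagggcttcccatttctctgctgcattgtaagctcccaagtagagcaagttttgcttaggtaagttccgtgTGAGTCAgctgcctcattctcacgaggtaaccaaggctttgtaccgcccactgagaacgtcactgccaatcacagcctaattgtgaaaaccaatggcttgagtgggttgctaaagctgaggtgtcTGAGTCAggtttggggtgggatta
*Itgax* (chr7:128129300-128129549, plus strand): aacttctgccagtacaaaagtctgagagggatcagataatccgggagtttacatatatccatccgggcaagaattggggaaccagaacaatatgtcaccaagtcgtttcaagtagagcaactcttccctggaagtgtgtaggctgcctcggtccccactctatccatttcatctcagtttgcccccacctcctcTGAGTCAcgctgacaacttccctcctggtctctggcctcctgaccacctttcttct
*Spp1* (chr5:104434861-104435110, plus strand, the first of its 2 starts): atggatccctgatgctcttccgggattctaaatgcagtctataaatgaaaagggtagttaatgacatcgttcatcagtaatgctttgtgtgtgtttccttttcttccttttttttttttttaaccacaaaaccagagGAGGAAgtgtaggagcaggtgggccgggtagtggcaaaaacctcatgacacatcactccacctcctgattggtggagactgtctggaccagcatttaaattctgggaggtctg
In *Trem2* the AP-1 match began 9 bases before the start and the PU.1 core, read on the other strand, 40 before it. *Cd68* held AP-1 matches beginning 149 and 24 bases before the start and a PU.1 core 225 before it, with another on the other strand at base 30 after it. The AP-1 match of *Gpnmb* began at base 9 after the start and lies outside the stretch upstream.

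*Trem2* encodes the surface receptor for lipids and lipoproteins that gives these macrophages their usual name (chr17:48346401-48352276 on mm10, plus strand, up to 5 exons in GENCODE). It ranged from 0.922 FPKM in W157 through a median of 2.53 to 4.57 in W318 among WT livers. Among *Gpr180*KO livers it ranged from 0.0736 FPKM in KO52 through 0.806 to 1.94 in KO319. The confidence interval listed beside the value reached 0 in KO52, KO322 and KO54. The groups overlapped: 6 *Gpr180*KO livers lay below the lowest WT liver and 5 WT livers above the highest *Gpr180*KO liver. The log2 difference was -1.82 (SE 0.423, limma adjusted p 0.0227), a 3.54-fold lower level, and the two-sided exact permutation test over 48620 assignments of livers gave p = 0.00119. In series 1 (4 against 4) the exact permutation p was 0.0857, where 0.0286 is the smallest possible, and in series 2 (5 against 5) it was 0.0159, where 0.00794 is the smallest.

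*Spp1* encodes osteopontin, a secreted ligand of integrins and CD44 (chr5:104435111-104441053, plus strand, up to 6 exons). It was the most abundant of the 9 per transcript length. WT livers ranged from 36.8 FPKM in W134 through a median of 124 to 223 in W131, and *Gpr180*KO livers from 14.9 in KO54 through 32.6 to 47.7 in KO51. Only W134 and W157 (39.7 FPKM) among WT livers reached into the *Gpr180*KO range, and 7 *Gpr180*KO livers lay below the lowest WT liver. The log2 difference was -1.96 (SE 0.341, limma adjusted p 0.00701), a 3.89-fold lower level, with a two-sided exact permutation p of 0.00037. By exact permutation, p was 0.0286 in series 1 and 0.0476 in series 2. Osteopontin is also made by bile duct cells, whose keratin *Krt19* had a log2 difference of -0.47 (limma adjusted p 0.351, lower minimum). The 5 bile duct genes listed had a median of -0.52 with that minimum. Of them *Sox9* was called lower (limma adjusted p 0.0355 with that minimum and 0.0454 with the main one). With the main minimum and median-of-ratios scaling its limma adjusted p was 0.137. A provisional gene model, *Gm42793*, shares exon sequence with *Spp1* on the same strand.

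*Lgals3* encodes galectin-3, a secreted and cytosolic lectin abundant in macrophages (chr14:47373860-47386167, plus strand, up to 6 exons). WT livers ranged widely, from 3.11 FPKM in W157 through 13.9 to 29.5 in W318, and *Gpr180*KO livers from 2.78 in KO56 through 5.90 to 8.15 in KO319. Of the WT livers 7 lay above the highest *Gpr180*KO liver, while W156 (5.94 FPKM) and W157 did not. The log2 difference of -1.22 (SE 0.360) missed the limma threshold at an adjusted p of 0.0534, with a two-sided exact permutation p of 0.00847. By exact permutation, p was 0.0286 in series 1 and 0.0873 in series 2.

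*Gpnmb* encodes a transmembrane glycoprotein of lysosomes and the cell surface (chr6:49036518-49058182, plus strand, up to 11 exons). It had the largest difference of the 9, and only 0.0831% of the genes tested had a lower log2 difference. WT livers ranged from 0.0760 FPKM in W157 through a median of 1.93 to 6.88 in W131, and *Gpr180*KO livers from 0.0181 in KO54 through 0.427 to 1.59 in KO319. W157 lay below 7 of the 9 *Gpr180*KO livers, and the next lowest WT liver, W156, had 1.14 FPKM. The log2 difference was -2.31 (SE 0.614, limma adjusted p 0.0373), with a two-sided exact permutation p of 0.00452 (0.0286 in series 1 and 0.0397 in series 2). Several values lie near or below the added constant of 0.1, and the difference was -1.25 with a constant of 1 and -2.75 with 0.01, where the limma adjusted p was 0.0518. The call was lost in 10 of the 18 fits that left out 1 liver, and without W157 the difference was -2.76 (limma adjusted p 0.00357).

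*Cd68* encodes a glycoprotein of late endosomes and lysosomes related to the LAMP proteins and is a general marker of macrophages (chr11:69664371-69666062, minus strand, up to 6 exons). WT livers ranged from 11.5 FPKM in W157 through 20.6 to 23.9 in W318, and *Gpr180*KO livers from 7.55 in KO52 through 11.9 to 15.9 in KO319. The highest *Gpr180*KO liver exceeded 3 WT livers, W157, W156 and W319. The log2 difference was -0.69 (SE 0.164, limma adjusted p 0.0257), a 1.61-fold lower level, with a two-sided exact permutation p of 0.00193. By exact permutation, p was 0.0571 in series 1 and 0.0238 in series 2.

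*Cd63* and *Cd9* encode tetraspanins, membrane organisers of which CD63 is enriched in late endosomes and exosomes. *Cd63* (chr10:128908919-128912818, plus strand, up to 9 exons) ranged in WT livers from 4.78 FPKM in W157 through 14.9 to 22.7 in W318, and in *Gpr180*KO livers from 2.34 in KO54 through 4.84 to 10.3 in KO319. KO319 exceeded 4 WT livers, and 4 *Gpr180*KO livers lay below W157, the lowest WT liver. The log2 difference of *Cd63* was -1.34 (SE 0.304, limma adjusted p 0.0212), a 2.54-fold lower level, with a two-sided exact permutation p of 0.00222 (0.0571 in series 1 and 0.0317 in series 2). *Cd9* (chr6:125460266-125494755, minus strand, 8 exons) had the smallest difference. Its WT livers ranged from 8.12 FPKM in W157 through 20.3 to 25.3 in W318, and its *Gpr180*KO livers from 8.81 in KO54 through 11.5 to 16.0 in KO321. Without W157 the lowest WT liver had 15.6 FPKM, and 1 WT liver lay below the highest *Gpr180*KO liver. The log2 difference of *Cd9* was -0.60 (SE 0.173, limma adjusted p 0.0501), with a two-sided exact permutation p of 0.00679 (0.0286 in series 1 and 0.0873 in series 2), and -0.74 (limma adjusted p 0.00238) without W157. An exon of *Gm26728*, on the other strand, overlaps *Cd9*, and the sources used here do not say whether strand was used in counting. For *Cd9* and *Cd68*, 6 of 18 FPKM values each lay outside the confidence interval that the tables list beside them. All of these lay above the interval and most were WT livers. They were W317, W318, W319, W131, W133 and KO321 for *Cd9*, and W317, W318, W131, W133, KO321 and KO322 for *Cd68*.

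*Atp6v0d2* encodes a tissue-restricted d subunit of the proton pump that acidifies lysosomes (chr4:19876838-19922566, minus strand, 8 exons). WT livers ranged from 0.761 FPKM in W134 through 1.73 to 2.88 in W317, and *Gpr180*KO livers from 0.573 in KO51 through 0.792 to 1.39 in KO56. W134 was the 1 WT liver inside the *Gpr180*KO range, and the next lowest WT liver, W319, had 1.52 FPKM. The log2 difference was -1.01 (SE 0.209, limma adjusted p 0.0159), with a two-sided exact permutation p of 0.000576. The exact permutation p was 0.0286 in series 1 and 0.0317 in series 2.

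*Itgax* encodes CD11c, the αX integrin of dendritic cells and of recruited macrophages (chr7:128129568-128150657, plus strand, up to 30 exons). It was the least abundant, from 0.307 FPKM in W157 through 0.813 to 2.06 in W133 in WT livers, and from 0.0681 in KO54 through 0.361 to 0.905 in KO321 in *Gpr180*KO livers. The ranges overlapped, with 5 WT livers below the highest *Gpr180*KO liver and 3 *Gpr180*KO livers below the lowest WT liver. The log2 difference was -1.24 (SE 0.350, limma adjusted p 0.0418, lower minimum), with a two-sided exact permutation p of 0.00518 (0.0571 in series 1 and 0.0238 in series 2). Leaving out 1 liver at a time, it kept the call in 5 of 18 fits. The call was lost with median-of-ratios scaling (limma adjusted p 0.0666) and 75th percentile scaling (0.0561).

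Partners and relatives of the 9 genes were read from lists. For these lists and the cell type markers below, 4.28% of all genes tested were called lower (median log2 -0.13). With the lower minimum the share was 5.54% (median log2 -0.15). Of 19 further genes of the lipid-associated macrophage programme, 16 were tested, 2 were called lower (*Mmp12*, macrophage elastase, log2 -1.92, adjusted p 0.0404; *Cd36*, a fatty acid receptor, log2 -0.73, adjusted p 0.0337) and their median was -0.38. *Apoe*, *Plin2* and some of the cathepsins in this list are also made by hepatocytes. The cathepsin gene *Ctsk* had only 0.856 FPKM in WT and 0.359 in *Gpr180*KO livers. Tested with the lower minimum, *Ctsk* was called lower (log2 -1.10, adjusted p 0.0366). In the TREM2 pathway, the adaptor gene *Tyrobp* had 56.6 FPKM in WT and 40.5 in *Gpr180*KO livers (log2 -0.44, adjusted p 0.169), and the kinase gene *Syk* was called lower (log2 -0.80, adjusted p 0.0337), 1 of 4 tested. With the lower minimum 2 of 7 were called, the other being the phospholipase gene *Plcg2* (log2 -0.61, adjusted p 0.0488). Of 7 receptor genes of osteopontin (*Cd44* and integrin chains), 6 were tested and *Itgav* was called lower (log2 -0.55, adjusted p 0.0394). *Itgam*, a β2 integrin chain and a close relative of *Itgax*, was called lower with the lower minimum (log2 -1.09, adjusted p 0.0206), whereas the shared partner *Itgb2* had a log2 difference of -0.70 (adjusted p 0.0828).

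The proton pump is one family with a member among the 9 genes. Among 16 other subunits of the proton pump 1 was called lower, *Atp6v0e* (log2 -0.32, adjusted p 0.0448). *Atp6v0a1* joined it with the lower minimum (log2 -0.31, adjusted p 0.0487). The median log2 difference of the 16 was -0.12, near that of all genes tested (-0.13), of which 4.28% were called lower. *Atp6v0c*, named after its values were seen, had means of 78.6 and 80.7 FPKM but a log2 difference of 1.18 (adjusted p 0.503), since it was listed at 0.00451 FPKM in W319. The ubiquitous d subunit *Atp6v0d1* had 41.7 and 39.0 FPKM in WT and *Gpr180*KO livers, far above *Atp6v0d2*, and a log2 difference of -0.10 (adjusted p 0.496). *Lamp1* and *Lamp2*, relatives of *Cd68*, had log2 differences of -0.15 and -0.07, and none of 3 tested factors of the MITF and TFEB family passed (median -0.08). Of 8 further tetraspanins *Cd151* (log2 -0.40, adjusted p 0.0161) and *Cd37* (log2 -0.61, adjusted p 0.0359) were called lower, with a median of -0.45. Of 4 further galectins none passed, and *Lgals1* had the lowest value (log2 -1.10, adjusted p 0.0584). With median-of-ratios scaling, of the genes named in this and the previous paragraph that were tested in that fit, only *Cd36* kept its call (adjusted p 0.0489).

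**Figure D3:**
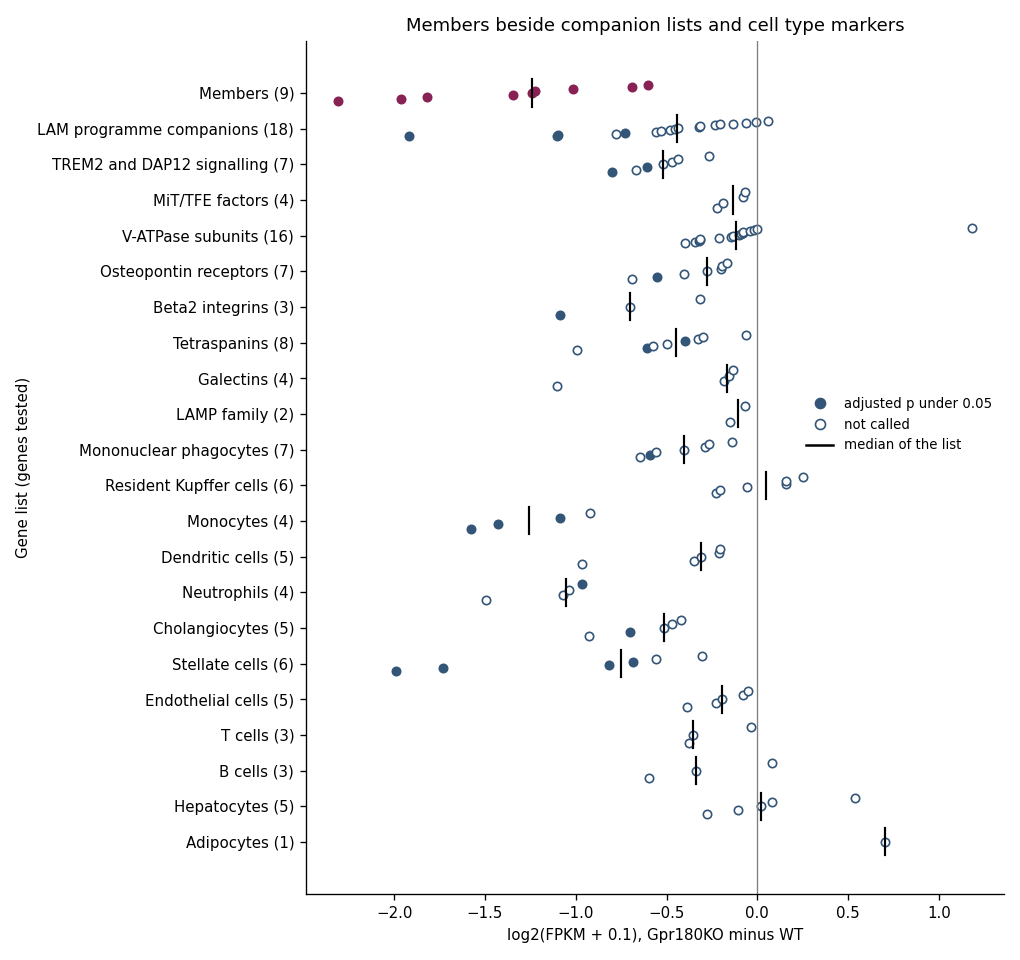
Log2 difference between genotypes for the 9 genes and for each gene of the companion lists and cell type marker lists that reached the lower minimum of 0.1 FPKM. Filled points have a limma adjusted p under 0.05 in the fit with that minimum, bars are list medians; the 9 genes lie between -2.31 and -0.60, and the 6 Kupffer cell genes between -0.23 and 0.25.

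General markers of mononuclear phagocytes were set beside the 9 genes. *Csf1r*, the receptor that maintains macrophages, had 21.9 FPKM ± 6.82 (SD, n = 9) in WT and 19.2 ± 3.06 (SD, n = 9) in *Gpr180*KO livers (log2 -0.14, limma adjusted p 0.626). Of the 7 markers, *Laptm5* was called lower (log2 -0.59, adjusted p 0.0358, but 0.0717 with median-of-ratios scaling), the median was -0.40, and their summed level ranged from 101 to 295 FPKM in WT and 130.7 to 169 in *Gpr180*KO livers. When each gene was taken relative to *Csf1r* in the same liver, all 9 were lower in *Gpr180*KO livers, from -2.17 to -0.46 on the log2 scale, each with an exact permutation p at or below 0.0144. Within single series the exact permutation p ran from 0.0286 to 0.143 in series 1 and from 0.00794 to 0.143 in series 2. Exact permutation p-values of these ratios, here and below, are not adjusted for their number. *Csf1r* had the smallest difference of the 7 markers and *Ptprc*, the pan-leukocyte gene CD45, the largest (log2 -0.65, limma adjusted p 0.0979). Relative to *Ptprc*, 8 of 9 were lower and 4, *Gpnmb*, *Spp1*, *Trem2* and *Itgax*, had an exact permutation p at or below 0.0446, while *Cd68* stood at -0.04 and *Cd9* at 0.05. Relative to *Laptm5*, 5 of 9 had an exact permutation p at or below 0.0281 (the same 4 and *Cd63*), and *Cd9* stood at -0.01 (p = 0.951). Relative to *Cd68*, 7 of the other 8 were lower and 4 of them, *Gpnmb*, *Spp1*, *Trem2* and *Cd63*, had an exact permutation p at or below 0.0179, while *Cd9* was 0.09 higher (p = 0.503).

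None of 6 markers of resident Kupffer cells was called. Of these, *Clec4f* (43.9 against 48.1 FPKM, log2 0.16, adjusted p 0.573), *Timd4* (4.18 against 4.28 FPKM, log2 0.16, adjusted p 0.676) and *Cd163* (log2 0.25) were on the higher side in *Gpr180*KO livers. *Vsig4* (log2 -0.23), *Cd5l* (log2 -0.20) and *Marco* (log2 -0.06) were on the lower side, and the summed level ranged from 102 to 243 FPKM in WT and 126 to 187 in *Gpr180*KO livers. Monocyte genes fell in part: *Ccr2*, the chemokine receptor of inflammatory monocytes, had 2.67 FPKM in WT and 0.836 in *Gpr180*KO livers (log2 -1.43, adjusted p 0.0279). With the lower minimum, 3 of 4 monocyte genes were called lower, *Ccr2*, *Cx3cr1* and *Itgam*, and the summed level ranged from 1.38 to 11.3 FPKM in WT and from 1.49 to 3.77 in *Gpr180*KO livers.

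Markers of some other cells were lower in *Gpr180*KO livers as well. Beside the counts below, 4.28% of all genes tested were called lower, and 5.54% with the lower minimum. Of 6 stellate cell and fibroblast genes 4 were called lower (*Col1a1*, *Col3a1*, *Pdgfrb* and *Dcn*), *Col1a1* at a log2 difference of -1.99 (adjusted p 0.0161), and their summed level ranged from 139 to 272 FPKM in WT and from 77.1 to 136 in *Gpr180*KO livers. The 4 neutrophil genes summed to between 3.38 and 40.1 FPKM in WT and 4.03 and 10.7 in *Gpr180*KO livers, and with the lower minimum *Csf3r* was the 1 called (log2 -0.97, adjusted p 0.00551). Of 5 bile duct genes 1 reached the main minimum, *Sox9*, and it was called lower (log2 -0.70, adjusted p 0.0454, but 0.137 with median-of-ratios scaling). The summed level of the 5 was 2.80 to 6.14 FPKM in WT and 1.497 to 3.51 in *Gpr180*KO livers. None of the 5 dendritic cell, 3 T cell or 3 B cell genes passed with the lower minimum, nor did any of 5 endothelial and 5 hepatocyte genes. The hepatocyte genes summed to between 7988 and 11092 FPKM in WT and 8363 and 11599 in *Gpr180*KO livers, and of the adipocyte genes *Plin1* was listed at 0 and *Adipoq* at means of 0.0181 and 0.00997 FPKM. The third adipocyte gene, *Cfd*, which other cells also express, had means of 18.8 FPKM in WT and 52.3 in *Gpr180*KO livers, reaching 278 in 1 *Gpr180*KO liver (log2 0.70, adjusted p 0.602). The part of these cells in the difference of the 9 genes was not tested.

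The 9 genes varied together across the 9 WT livers. All 36 pairs had a positive Pearson r of log2(FPKM + 0.1), with a median r of 0.81 and a median Spearman rho of 0.74. Adjusted over the 144 relations computed, 22 of the 36 pairs passed by Pearson's r and 6 by Spearman's rho, each tested by exact permutation over 362880 pairings. The closest pair was *Trem2* and *Cd63* (r = 0.98, adjusted exact permutation p 0.00119; rho = 0.95, adjusted p 0.0102), with r = 0.96 when W157 and W318, the livers farthest from the median of *Trem2*, were left out. *Gpnmb* and *Lgals3* had r = 0.96 (adjusted exact permutation p 0.00119; rho = 0.98, adjusted p 0.00714), and r = 0.97 without W157 and W131. Leaving out, for each pair, the 2 livers farthest from the median of 1 of its genes (never *Atp6v0d2*) lowered the median r to 0.71. By Pearson's r *Atp6v0d2* stood apart, with a median r of 0.44 with the other 8. Its Spearman rho ran from 0.42 with *Gpnmb* and *Cd68* to 0.85 with *Itgax* and *Cd63*. None of its pairs passed by either measure.

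In the 9 *Gpr180*KO livers, 35 of 36 pairs had a positive r, the median r was 0.55 and the median rho 0.54. By Pearson's r 3 pairs passed and by Spearman's rho 1. *Gpnmb* and *Cd63* had r = 0.92 (adjusted exact permutation p 0.00908; rho = 0.97, adjusted p 0.00794), and r = 0.82 without KO54 and KO319. *Cd9* and *Itgax* had r = 0.87 (adjusted exact permutation p 0.0192; rho = 0.87, adjusted p 0.0590), and r = 0.68 without KO321 and KO54. *Spp1* and *Cd63* had r = 0.81 (adjusted exact permutation p 0.0425, rho = 0.68, adjusted p 0.165). Without KO54 and KO53, the livers farthest from the median of *Spp1*, r fell to 0.48. The difference between the genotypes in correlation was not tested. With values centred on genotype and series, which removes any shift between the series, the median r of the 36 pairs over all 18 livers was 0.61.

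**Figure D4:**
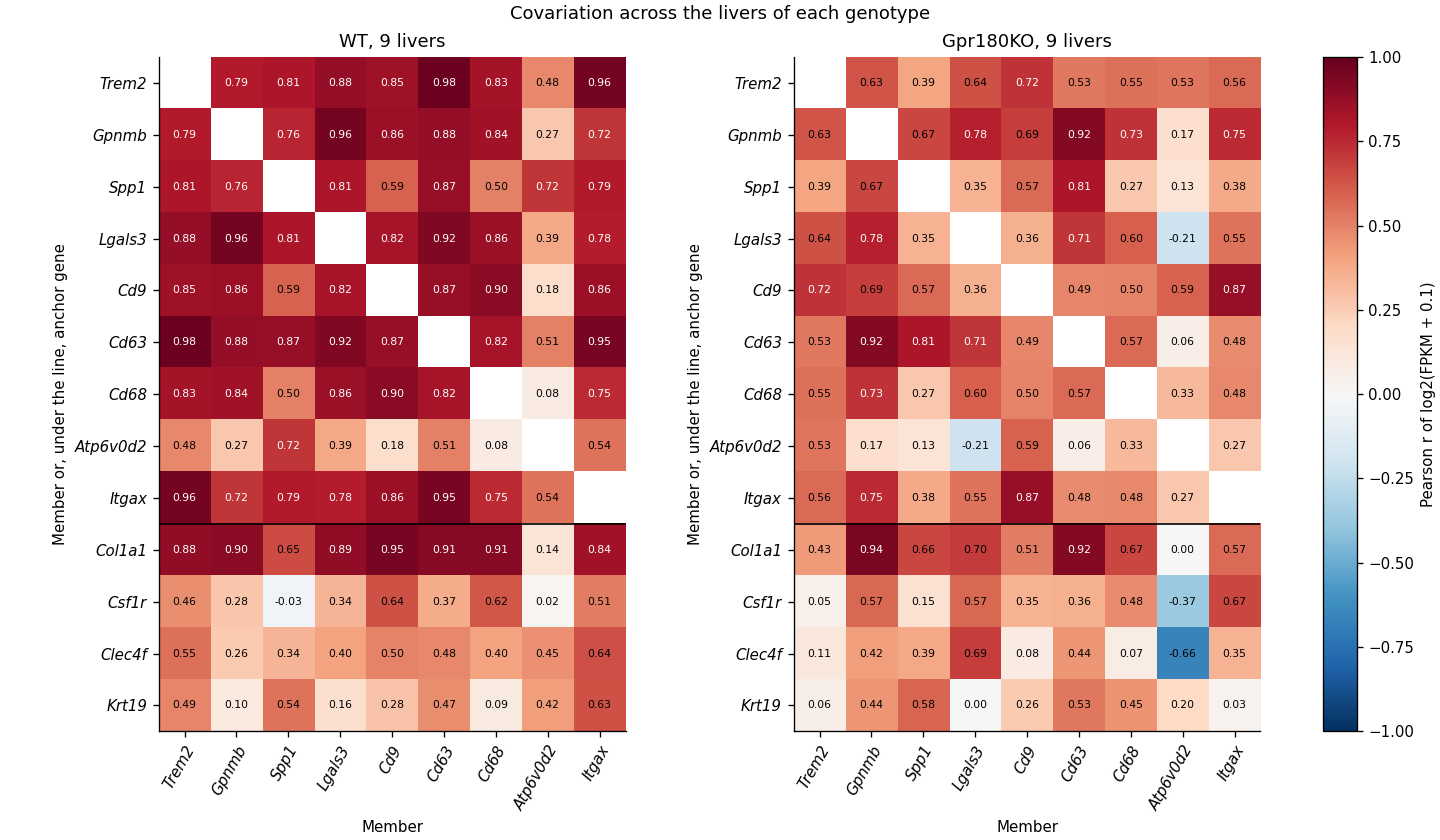
Pearson r of log2(FPKM + 0.1) across the 9 livers of each genotype, between the 9 genes and, under the line, with the 4 anchor genes. Among WT livers the block of the 9 genes is high apart from the *Atp6v0d2* row, and *Col1a1* is the anchor gene with the highest values (median r 0.89 in WT and 0.66 in *Gpr180*KO livers).

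The 4 anchor genes were correlated with the 9 genes in the same way. Of these, *Csf1r* marks mononuclear phagocytes, the lineage of the lipid-associated macrophage itself. *Col1a1*, made by stellate cells and fibroblasts, had a median r of 0.89 with the 9 genes in WT livers, where 7 of 9 relations passed by Pearson's r and 0 by Spearman's rho after adjustment (exact permutation). *Atp6v0d2* had the lowest r with *Col1a1* in WT livers, 0.14. In *Gpr180*KO livers the median was 0.66 and 2 of 9 passed by both, *Gpnmb* (r = 0.94, adjusted exact permutation p 0.00618; rho = 0.97, adjusted p 0.00794) and *Cd63* (r = 0.92, adjusted exact permutation p 0.0129; rho = 0.93, adjusted p 0.0180). With *Csf1r* the median r was 0.37 in WT and 0.36 in *Gpr180*KO livers, with the Kupffer cell gene *Clec4f* 0.45 and 0.35, and with *Krt19* 0.42 and 0.26. None of those relations passed in either genotype. With values centred on genotype and series over 18 livers, the median r was 0.71 with *Col1a1*, -0.02 with *Csf1r*, 0.11 with *Clec4f* and 0.34 with *Krt19*. With median-of-ratios scaling 1 relation with *Csf1r* passed in *Gpr180*KO livers, that of *Atp6v0d2* (r = -0.82, against -0.37 without the scaling).

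Over all 18 livers, centred on the genotype means, each of the 9 genes was set against 10827 other genes, as a description without a test. The most similar gene to *Gpnmb* was *Tagln*, a smooth muscle actin-binding protein, at r = 0.95, followed by the collagen gene *Col1a2* at 0.92. *Cd63* was closest to *S100a11* (r = 0.94), *Lgals3* to *Tnfrsf12a*, the receptor of the cytokine TWEAK (r = 0.95), and *Itgax* to *Sptlc2*, a subunit of serine palmitoyltransferase (r = 0.95). *Trem2* was closest to *Bcl2a1a* (r = 0.89), *Cd9* to the myeloid myosin *Myo1f* (r = 0.93), *Cd68* to the lamin A gene *Lmna* (r = 0.92) and *Spp1* to annexin A1, *Anxa1* (r = 0.83). *Atp6v0d2* reached only 0.80, with the mitochondrial gene *Immt*. Of the 27 genes, the 3 closest to each, 13 were called in the limma fit and all 13 were lower in *Gpr180*KO livers. Over all genes tested, 4.28% were called lower and 0.452% higher. Since the 27 were picked for likeness to the 9 genes, their direction is no separate support. Any shift between the series also remains in these r values. These points share the libraries, and a liver far from the rest such as W157 enters every one of them.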

How the data were processed

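Livers were grouped by the genotype given per the labels. The authors prepared poly(A) libraries with the TruSeq mRNA kit, aligned reads to mm10 (GRCm38) with the TopHat Alignment application, and deposited its FPKM output as 1 table per mouse. Its version, gene annotation and use of strand are not given in the sources used here. Each table had 23847 entries. Entries sharing a symbol were summed, which gave 23352 symbols, and 24 genes with any failed estimate were dropped. No counts were used: the depth behind a value is therefore not known, and the steps of low values gave an estimate of relative depth only.

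Genes that averaged 1 FPKM or more over the 18 livers were compared on log2(FPKM + 0.1) with limma 3.58.1 in R 4.3.3 (lmFit, eBayes with trend), with Benjamini-Hochberg adjustment over all 10835 genes. *Itgax* was read from the same fit of 14016 genes with a mean of at least 0.1. Exact permutation tests and correlations used Python 3.11.15 and scipy 1.17.1, and figures matplotlib 3.10.9. Loci were taken from the tables and compared with GENCODE M21, and promoters from RefSeq. The 9 genes, all genes of the companion and marker lists that passed and 4 anchor genes are named. Of the 3 genes most like each, at least the closest is named. Other list genes are given for context and were picked with their values seen. The genes and lists were chosen with earlier results of these data known. The alternatives were another added constant, minimum, scaling or variance model, library weights, series as a block, each series alone and each liver left out. Each library is a separate mouse, and p-values measure the spread between these mice.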

Additional observations from a re-analysis of the deposited data

Results flagged for a closer look

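In each genotype the highest and lowest of the 9 livers were checked for distance from the rest, on the log2(FPKM + 0.1) scale, in 18 sets of values (9 genes in each genotype). 3 of the 18 were flagged because the lowest liver lay farther from the next than Dixon's 95% critical value allows, and chance flags about 1 in 20 such sets. *Gpnmb* was far lower in the WT liver W157, at 0.0760 FPKM, than in the next lowest WT liver. *Cd9* was far lower in the same WT liver, W157, at 8.12 FPKM. *Atp6v0d2* was far lower in the WT liver W134, at 0.761 FPKM. The sets share livers and are not independent of each other.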

How the results depend on the processing

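Across 34 alternatives for the limma fit, all 9 genes kept a lower level in *Gpr180*KO livers wherever they were tested. In the main fit 76.9% of all genes tested were lower too, and with median-of-ratios scaling 44.9%. Counts of all genes here take both directions together. The main fit called 513 of all genes, 464 lower and 49 higher, and 6 of the 8 tested members, all lower. With a minimum mean FPKM of 0.1 it called 837 of all genes, with a minimum of 5 it called 238 genes and 3 members of the 5 that pass, and with no minimum 313 genes and 2 members. Median-of-ratios scaling gave 293 genes, of which only 147 were lower, so the excess of lower genes was not seen there. With 75th percentile scaling 322 genes were called, with series as a block 1153 (1031 lower) and with library weights 1331. Series 2 alone gave 0 genes and 0 members. Leaving out 1 liver at a time gave from 132 genes (without W133) to 922 (without W157), and from 2 to 8 members. Counts without W317, W318, W320, W156, KO51, KO52, KO53 and KO54 also moved by over 1.5 times. The comparisons relative to *Csf1r*, *Cd68*, *Ptprc* and *Laptm5*, and median-of-ratios scaling with series as a block (635 genes and 7 members), were chosen after seeing the data, and *Cd9* changed sign to 0.0894 relative to *Cd68* and 0.0472 relative to *Ptprc*. The cause of these changes was not tested, except that the lower minimum and no minimum change how many genes are adjusted together. Median-of-ratios scaling left the median r of member pairs at 0.78 in WT and 0.51 in *Gpr180*KO livers. No paired analysis was possible because each mouse is its own sample: 2 mouse numbers occur in both genotypes but name different mice. FPKM without counts gives no depth, so the low values of *Gpnmb*, *Trem2* and *Itgax* carry a counting error that was not computed here. The confidence intervals listed beside them give a measure of it. That of *Gpnmb* in W157 (0.0760 FPKM) ran from 0.0144 to 0.130, and that of *Trem2* in KO52 (0.0736 FPKM) from 0 to 0.355.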
